A study of Mus musculus with 4 samples.

Results

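Solute carriers are membrane proteins that move sugars, amino acids, peptides, ions, metals, vitamins and other small solutes across the plasma membrane and the membranes of organelles. The genes described here were chosen from the 55401 genes of the table by their name (Slc, a family number, letters and a member number) and by their abundance, with at least 200 counts summed over the 4 libraries. Of 381 genes with such a name, 161 passed the minimum. Of those, 158 were counted by their family as encoding a transporter or the heavy chain of one. The other 3 carry a related name without being transporters, namely the scaffold gene Slc9a3r1 and the genes Slc7a6os and Slc4a1ap. The 220 genes under the minimum included 71 with no count at all. All 161 are protein-coding genes at the same position in the GENCODE M21 annotation of mouse build GRCm38. Slc15a2 and Slc24a3 were singled out with their difference between the diets already known, so their values are given as a description.

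RNA-seq libraries had been made from hair follicle stem cells of C57BL/6 mice in anagen, when the follicle grows. The compared groups were mice on a normal diet and mice on a high-fat diet for 4 months, with 2 libraries each. No age, sex, genotype other than the strain, cell isolation or origin of the replicates from separate mice is given in the sources used here. The p-values rest on the spread between replicate libraries alone, and part of that spread may be technical. The comparison asks which transport genes of these cells differ with the diet.

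The solute carrier superfamily is grouped into families by sequence, and most families share a type of substrate. Some members, such as the glucose transporters of the Slc2 family, let a solute run down its gradient. Others couple uptake to sodium or protons, and most Slc25 carriers sit in the inner mitochondrial membrane. In epithelial cells of skin, solute carriers supply glucose and amino acids, take up taurine and other organic osmolytes, and set the levels of zinc, calcium and protons in the cell.

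Total counts were between 8590570 and 9940848 per library, and 3 counts were worth 0.291 to 0.359 CPM (counts relative to library size after TMM scaling, which equalises the typical gene). The chosen genes took between 0.733% and 0.817% of all counts. Bulge stem cell markers were present in every library. They summed to 4693 and 5518 CPM on the normal diet against 5634 and 5437 CPM on the high-fat diet, and 0 of 10 passed the edgeR test. At an unadjusted p under 0.05, 2 were higher and 2 lower (20% each, against 7.24% and 6.03% of all genes). Krt15 made up much of these sums, at 1996 and 2722 CPM against 3012 and 2978 CPM. Both high-fat diet libraries lay below both normal diet libraries for 6 of the 10 (60%, against 21.9% of all genes). They lay above for 3 (30%, against 22.7%). In other layers some markers were called. The 12 suprabasal markers summed to 1650 and 3504 CPM against 4872 and 6210 CPM, with 5 higher and 1 lower, and the 6 basal markers to 10010 and 11510 CPM against 15480 and 14150 CPM, with 3 higher. Of 8 upper follicle markers 4 were higher, although their sums overlapped (4216 and 3317 CPM against 3962 and 3454 CPM). Called higher were 41.7% of suprabasal, 50% of basal and 50% of upper follicle markers, against 1.12% of all genes. Called lower were 8.33% of suprabasal markers, against 0.228% of all genes. Fibroblast markers summed to 49.0 and 62.0 CPM against 88.4 and 72.8 CPM, with 0 of 8 called. At an unadjusted p under 0.05, 2 of them were higher (25%, against 7.24% of all genes). Endothelial markers summed to 10.9 and 13.4 CPM against 19.4 and 24 CPM (0 of 5 called). Immune markers summed to 7.77 and 27.8 CPM against 26.4 and 35 CPM (0 of 6 called), with Cpa3, Itgam and Mcpt4 at 0 in all libraries. Both high-fat diet libraries lay above both normal diet libraries for 100% of basal, 83.3% of suprabasal and 62.5% of upper follicle markers. The same held for 75% of fibroblast, 100% of endothelial and 33.3% of immune markers tested, against 22.7% of all genes. The reverse held for 8.33% of suprabasal and 12.5% of upper follicle markers, against 21.9%. Among tested markers of hair germ and matrix (6), sebocytes (5), dermal papilla (1), muscle (1) and Schwann cells (3), edgeR called 0. At an unadjusted p under 0.05, 1 sebocyte marker was lower (20%, against 6.03% of all genes) and 1 Schwann cell marker higher (33.3%, against 7.24%). Of 6 adipocyte markers 5 were at 0 in every library. The part of these markers in the results on solute carriers was not tested. In bulk RNA, fewer cells of a type and less RNA per cell cannot be told apart.

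With the high-fat diet, 4 of the 161 genes were higher and 0 were lower (edgeR quasi-likelihood test, adjusted p under 0.05 over 14479 genes). The 4 were Slc15a2, a peptide transporter, Slc24a3, a calcium exchanger, Slc16a14, a monocarboxylate transporter relative without a settled substrate, and Slc2a12, a glucose transporter. They made up 2.48% of the chosen genes, against 1.12% called higher among all genes tested, and 0.228% of all genes were called lower. Among the 10798 genes with at least 200 counts, 1.38% were called higher. Leaving aside Slc15a2 and Slc24a3, 2 of 159 genes were called higher, or 1.26%, which is near the share over all genes. At an unadjusted p under 0.05, 21 of the 161 were higher and 9 lower, or 13% and 5.59%, against 7.24% and 6.03% of all genes. For genes with at least 200 counts these shares were 7.6% and 7.49%. Without Slc15a2 and Slc24a3, 19 of 159 were higher (11.9%) and 9 lower (5.66%). Several of the 19, such as Slc2a5 and Slc9a9, had most of their counts from the high-fat diet libraries. The share is therefore only a description. DESeq2 called 5 higher and 1 lower, where over all 14479 genes it called 274 higher and 115 lower. With limma on log2(FPKM + 1) 0 were called in either direction, where over all genes it called only 2 higher and 0 lower. Fits without 1 library leave a single library in a diet and called fewer genes over the whole table. Their number of calls is therefore not a result about the chosen genes.

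Fold changes of most solute carrier genes were small, with quartiles of -0.22 and 0.28 on the log2 scale. The median was 0.03 over the 161 genes, 0.00 over all genes tested and -0.03 over the 10798 genes with at least 200 counts. There were 87 genes with a positive and 74 with a negative log2 fold change. Both high-fat diet libraries lay above both normal diet libraries for 43 genes (26.7%), and both lay below for 34 (21.1%). Among all genes tested these shares were 22.7% and 21.9%, and among those with at least 200 counts 21.1% and 24.7%. For the other 84 genes the diets overlapped. The log2 fold changes ran from -1.30 for Slc25a33, a mitochondrial pyrimidine nucleotide carrier, to 5.24 for Slc15a2.

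**Figure D1:**
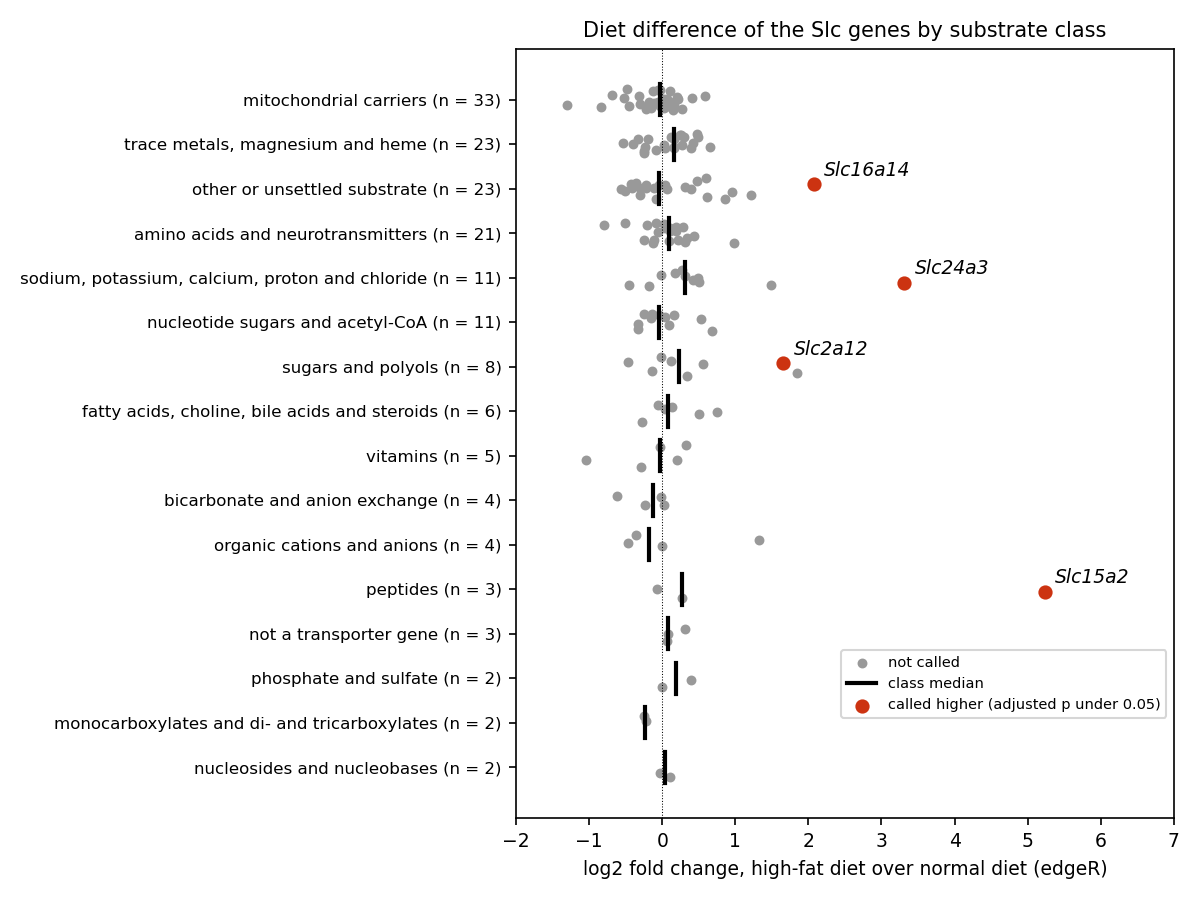
Log2 fold change of each of the 161 genes (x axis, high-fat diet over normal diet) by substrate class (y axis, with the number of genes), where each point is a gene, red points are genes called higher by edgeR and black bars are class medians. Most genes lie close to 0, and the 4 called genes, from 1.65 for Slc2a12 to 5.24 for Slc15a2, stand apart from their classes, as does Slc2a5 at 1.85, which was not called.

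The 4 called genes are each alone in their class in being called, and the sequences upstream of their starts are shown to compare their base composition and motifs. Each runs from 5′ to 3′ on the gene's strand and ends just before the gene's start, in RefSeq sequence of build GRCm38.p6. The positions are chr16:36784963-36785212 on the minus strand for Slc15a2, chr2:145167525-145167753 on the plus strand for Slc24a3, chr1:84935135-84935333 on the minus strand for Slc16a14 and chr10:22644761-22645010 on the plus strand for Slc2a12. Capitals mark matches, on either strand, to the motifs TATAAA (the TATA box), CCAAT (the CCAAT box), GGGCGG (the GC box), TGANTCA (an AP-1 motif) and GCCNNNGGC (an AP-2 motif).
Slc15a2: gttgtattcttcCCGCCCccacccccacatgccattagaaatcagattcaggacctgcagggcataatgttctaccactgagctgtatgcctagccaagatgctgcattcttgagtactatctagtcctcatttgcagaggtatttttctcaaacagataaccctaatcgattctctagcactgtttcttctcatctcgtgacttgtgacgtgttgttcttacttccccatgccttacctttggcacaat
Slc24a3: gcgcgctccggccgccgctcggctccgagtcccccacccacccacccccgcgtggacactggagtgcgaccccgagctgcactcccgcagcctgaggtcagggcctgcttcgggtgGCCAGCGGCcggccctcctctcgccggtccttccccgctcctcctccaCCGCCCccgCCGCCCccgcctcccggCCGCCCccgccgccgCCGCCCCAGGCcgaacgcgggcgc
Slc16a14: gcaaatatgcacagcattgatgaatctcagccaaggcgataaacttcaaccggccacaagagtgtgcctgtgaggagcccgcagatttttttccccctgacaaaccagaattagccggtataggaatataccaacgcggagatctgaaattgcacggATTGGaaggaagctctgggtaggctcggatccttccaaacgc
Slc2a12: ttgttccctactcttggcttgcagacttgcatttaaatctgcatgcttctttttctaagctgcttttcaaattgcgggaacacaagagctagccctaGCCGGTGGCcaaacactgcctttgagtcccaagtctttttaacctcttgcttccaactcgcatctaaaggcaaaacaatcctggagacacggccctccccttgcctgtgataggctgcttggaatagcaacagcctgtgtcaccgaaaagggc

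CpG content and motifs were compared over the whole 250 bases before each RefSeq start, which for Slc24a3 and Slc16a14 reach past the end of the printed stretch. The ratio of observed to expected CpG was 0.335 upstream of Slc15a2 and 0.345 upstream of Slc2a12, 0.693 for Slc16a14 and 0.914 for Slc24a3. The median over the 250 bases upstream of 10134 tested genes was 0.738, and 15.7% of these had a ratio under 0.4. The median was 0.69 over the 123 chosen genes that have a RefSeq promoter entry, with 12.2% under 0.4. A GC box was found once upstream of Slc15a2 and 4 times upstream of Slc24a3, and 60.6% of all such windows hold at least 1, against 68.3% of those of the chosen genes. Slc24a3 also had 2 matches to the AP-2 motif, 1 of which overlaps a GC box, and Slc2a12 had 1, where 20.8% of all windows and 17.1% of the chosen ones hold it. The window of Slc16a14 held 1 CCAAT box, present in 37.1% of all and 34.1% of the chosen windows, and 1 match to the AP-2 motif that is not within the printed stretch. None of the 4 windows holds TATAAA, found in 6.36% of all and 3.25% of the chosen windows, or TGANTCA, found in 4.18% and 6.5%.

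Slc15a2 encodes the high-affinity member of the proton-coupled transporters that import dipeptides and tripeptides, and is best known for reclaiming peptides in the kidney. The gene lies at chr16:36750177-36784962 on the minus strand, and its longest coding transcript has 22 exons. Its counts were 4 and 5 on the normal diet against 72 and 223 on the high-fat diet, or 0.388 and 0.523 CPM against 8.57 and 26.7 CPM. Both normal diet libraries were close to the floor of 3 counts, both high-fat diet libraries were well above it, and the second high-fat diet library was 3.11 times the first. The log2 fold change was 5.24 ± 0.66 (SE, n = 2 per diet), a 37.7-fold difference that rests on very few normal diet counts. With high-fat diet replicate 2 left out it was 4.20, and with replicate 1 left out 5.84. Nearly all of the 304 counts that took Slc15a2 past the minimum came from the high-fat diet libraries.

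The diets overlapped for the other peptide transporters. Slc15a1, the low-affinity peptide importer best known from the intestine, had 10.9 and 17.7 CPM against 17.5 and 16.9 CPM. Slc15a4, a lysosomal transporter of histidine and peptides, had 18.2 and 21.3 CPM against 22.0 and 15.3 CPM. Their log2 fold changes were 0.27 ± 0.30 and -0.08 ± 0.27 (SE). Further relatives were under the count minimum and not tested.

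Slc15a3, a lysosomal relative, had 1 and 4 counts against 9 and 5, and Slc15a5 had no count in any library. Per length of transcript, Slc15a2 reached 1.12 and 3.53 FPKM with the high-fat diet, where Slc15a1 stood at 3.45 and 3.36 FPKM and Slc15a4 at 3.99 and 2.80 FPKM. With the normal diet it was at 0.05 and 0.07 FPKM, far below both relatives. The summed level of the 3 peptide transporters was 5.90 and 7.84 FPKM with the normal diet and 8.56 and 9.69 FPKM with the high-fat diet. Of the enzymes that break down peptides, a list written alongside, 0 of 6 tested genes passed the edgeR test. At an unadjusted p under 0.05, 1 was higher and 1 lower (16.7% each, against 7.24% and 6.03% of all genes). Anpep, an aminopeptidase of the cell surface, had 23.6 and 45.5 CPM against 77.6 and 61.6 CPM (edgeR adjusted p = 0.0977), without overlap of the diets. Lap3 of the same list went the other way, at 486 and 328 CPM against 290 and 278 CPM (edgeR adjusted p = 0.196). For it too the diets did not overlap, and it was more abundant, at a mean of 112 FPKM against 12.4 FPKM for Anpep.

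**Figure D2:**
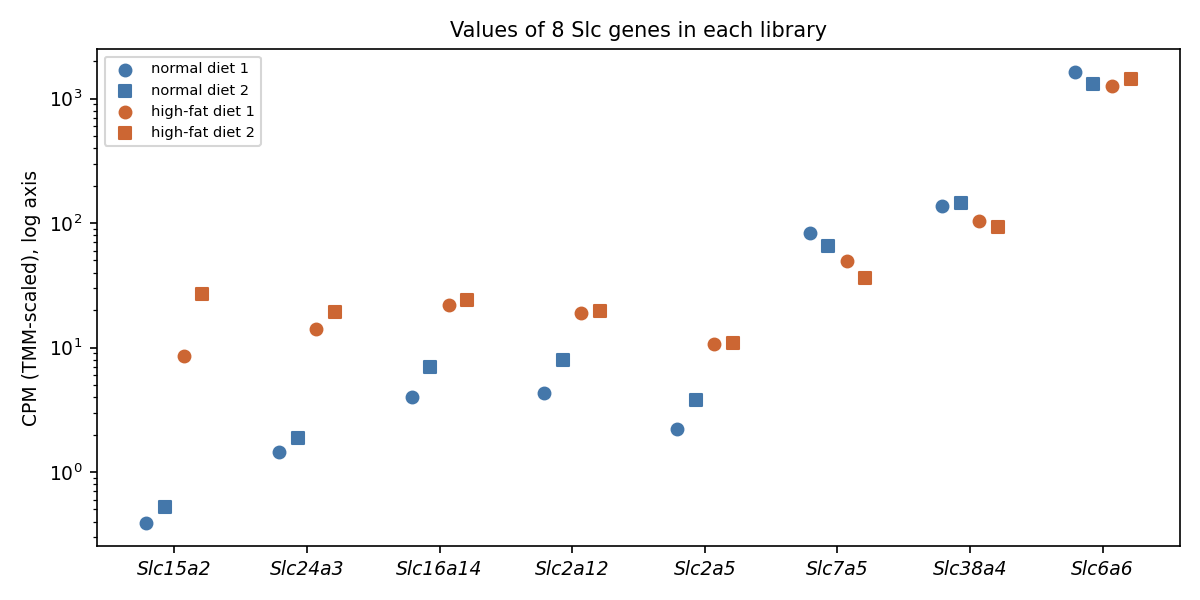
TMM-scaled CPM (y axis, log scale) of 8 solute carrier genes (x axis), with each of the 4 libraries as a point, circles for replicate 1 and squares for replicate 2. Slc15a2, Slc24a3, Slc16a14, Slc2a12 and Slc2a5 have both high-fat diet points above both normal diet points, Slc7a5 and Slc38a4 have both below, and the diets overlap for Slc6a6.

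Slc24a3 encodes an exchanger that removes calcium from the cell in return for sodium, while carrying potassium along with the calcium. The gene lies at chr2:145167754-145642166 on the plus strand, and its longest coding transcript has 17 exons. Normal diet counts were 15 and 18 and high-fat diet counts 118 and 162, or 1.46 and 1.88 CPM against 14 and 19.4 CPM. The 2 libraries of each diet were close to each other and the diets were far apart. The log2 fold change was 3.31 ± 0.41 (SE, n = 2 per diet), a 9.95-fold difference, and it lay between 3.06 and 3.53 when any 1 library was left out.

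Slc24a3 was the only gene of its family to reach the count minimum. Slc24a2, an exchanger of neurons and cone photoreceptors, had 0 counts in both normal diet libraries and 9 and 17 counts with the high-fat diet, and was not tested. Slc24a1, the exchanger of rods, had a single count in the first normal diet library, Slc24a4 had 3 counts in that library alone, and Slc24a5, the exchanger of pigment granules, had 0 and 9 counts against 0 and 1. The pigment cell gene Slc45a2 had 6 and 0 counts against 0 and 2. Melanocyte markers summed to 56.1 and 29.9 CPM with the normal diet against 42.1 and 31.1 CPM on the high-fat diet, and 0 of 6 tested passed the test, with none at an unadjusted p under 0.05.

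Slc24a3 belongs to a class of 11 genes for sodium, potassium, calcium, protons and chloride. This class had the highest median log2 fold change of the 16 classes, 0.31, with 8 positive and 3 negative values. With high-fat diet replicate 2 left out the median was 0.09. At an unadjusted p under 0.05, 5 of the 11 were higher (45.5%, against 7.24% of all genes) and 0 lower (against 6.03%), and Slc24a3, singled out with its difference known, is among the 5. Slc24a3 and Slc9a9, also among the 5, had most of the counts that took them past the minimum from the high-fat diet libraries. Counts of Slc9a9 were 46 and 26 against 60 and 110. The share is therefore only a description.

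Slc9a9, a sodium-proton exchanger of endosomes, had 4.47 and 2.72 CPM against 7.14 and 13.2 CPM (edgeR adjusted p = 0.186). Slc12a2, which imports sodium, potassium and chloride together, had 62.3 and 51.2 CPM against 89.9 and 68.6 CPM (edgeR adjusted p = 0.259). For both genes, and for the potassium-chloride exporter Slc12a7 at a log2 fold change of 0.50 ± 0.23 (SE), the diets did not overlap, and none passed the test after adjustment. Slc12a4, a related potassium-chloride exporter and at a mean of 24.6 FPKM the most abundant gene of the class, overlapped between the diets at 125 and 97.7 CPM against 85.2 and 112 CPM. The summed level of the class also overlapped, at 64.7 and 59.9 FPKM against 61.7 and 73.0 FPKM.

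The genes that work beside these exchangers were looked at from lists written for this purpose. Of the sodium pump genes, whose product drives sodium-coupled transport, 0 of 7 tested passed the edgeR test. At an unadjusted p under 0.05, 1 was higher (14.3%, against 7.24% of all genes). That gene, the beta subunit Atp1b3, had 176 and 212 CPM against 279 and 268 CPM (edgeR adjusted p = 0.106). Of calcium pumps and exchangers outside the name rule 0 of 8 passed. At an unadjusted p under 0.05, 2 were higher (25%, against 7.24% of all genes). The nearest was Atp2b4, a calcium pump of the plasma membrane, with 158 and 174 CPM against 231 and 332 CPM (edgeR adjusted p = 0.0508). In each of these genes the diets did not overlap.

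Slc2a12 encodes a glucose transporter of the plasma membrane and inner vesicles. The gene lies at chr10:22645011-22704285 on the plus strand. Normal diet libraries held 44 and 76 counts and high-fat diet libraries 158 and 164, or 6.11 ± 2.60 CPM against 19.2 ± 0.575 CPM (mean ± SD, n = 2 per diet). The high-fat diet libraries were nearly equal, and both exceeded the normal diet libraries. It rose 3.15-fold, a log2 fold change of 1.65 ± 0.35 (SE), with an edgeR adjusted p of 0.0435. The call was close to the threshold. With library totals alone as scaling the adjusted p was 0.0522, with equal sums of TPM 0.0524, and without any 1 of the 4 libraries it lay between 0.139 and 0.464.

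Slc2a5, the fructose transporter, had 23 and 36 counts against 90 and 91, or 3.0 ± 1.09 CPM against 10.8 ± 0.123 CPM (mean ± SD, n = 2 per diet). Here too the high-fat diet libraries were nearly equal and above both others. Its log2 fold change of 1.85 ± 0.43 (SE) missed the threshold in edgeR (adjusted p = 0.0663) and passed it in DESeq2 (adjusted p = 0.023). Slc2a1, the main glucose importer of epidermal cells, had 76.5 and 93.4 CPM against 119 and 95.2 CPM, with the higher normal diet value just under the lower high-fat diet value (log2 fold change 0.33 ± 0.16 SE, edgeR adjusted p = 0.407). It was the most abundant gene of the class, at a mean of 27.2 FPKM. Among 6 genes of the Slc2 family in the set, 4 had both high-fat diet libraries above both normal diet libraries (66.7%, against 22.7% of all genes) and 0 the reverse (against 21.9%). Slc2a5, among the 4, had most of the counts that took it past the minimum from the high-fat diet libraries, so the share is a description. Slc2a3 was under the minimum with 111 counts and was tested but not called.

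The insulin-regulated glucose transporter Slc2a4 was nearly level between the diets, at a log2 fold change of -0.01 ± 0.36 (SE). Slc5a3, which takes up the osmolyte myo-inositol, had lower values, 52.2 and 49.8 CPM against 36.2 and 37.6 CPM (log2 fold change -0.47 ± 0.17 SE, edgeR adjusted p = 0.251). Over the 8 sugar and polyol genes the median log2 fold change was 0.23. There were 4 genes separated upward (50%, against 22.7% of all genes) and 1 downward (12.5%, against 21.9%). Slc2a5, which passed the minimum mostly through the high-fat diet libraries, is among the 4. Their summed level was 53.8 and 59.3 FPKM with the normal diet and 68.0 and 59.5 FPKM with the high-fat diet.

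Slc16a14 encodes a relative of the monocarboxylate transporters. The gene lies at chr1:84905898-84935134 on the minus strand. Normal diet counts were 41 and 67 and high-fat diet counts 185 and 203, or 5.50 ± 2.14 CPM against 23.1 ± 1.60 CPM (mean ± SD, n = 2 per diet). Each high-fat diet value was more than the sum of both normal diet values. The gene rose 4.21-fold, a log2 fold change of 2.08 ± 0.33 (SE), with an edgeR adjusted p of 0.0151. The edgeR adjusted p was 0.464 and 0.139 when normal diet replicate 1 or 2 was left out, and 0.0285 and 0.0549 when high-fat diet replicate 1 or 2 was.

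Its better-known relatives are lactate transporters. Slc16a1, which carries lactate and pyruvate, had 35.2 and 28.7 CPM against 28.8 and 24.9 CPM, and the diets overlapped. Slc16a3, the lactate exporter of glycolytic cells, was under the minimum with 1 and 6 counts against 52 and 19 (log2 fold change 3.52 ± 0.97 SE, edgeR adjusted p = 0.125). For Slc16a3 both high-fat diet libraries were higher. The 23 genes of other or unsettled substrate, among them Slc16a14, had a median log2 fold change of -0.05, with 7 genes separated upward and 7 downward (30.4% each, against 22.7% and 21.9% of all genes).

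**Figure D3:**
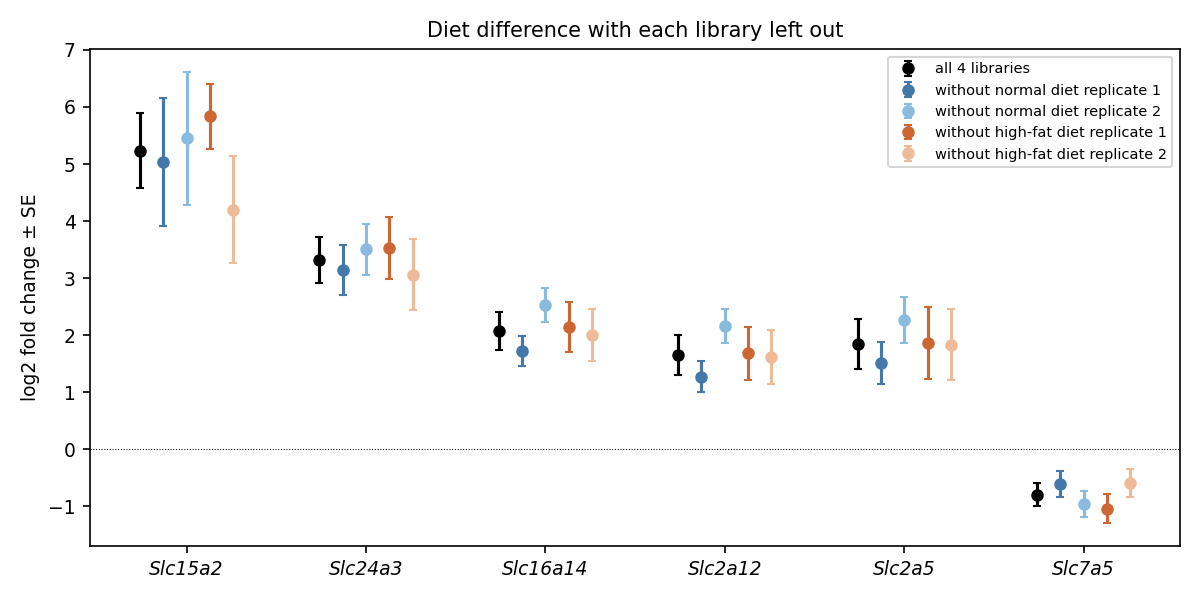
Log2 fold change, high-fat diet over normal diet, with its SE (y axis) for 6 solute carrier genes (x axis) in all 4 libraries (black) and with each library left out in turn (colours). The sign of each gene stays the same throughout, and Slc15a2 varies the most, from 4.20 to 5.84.

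Amino acid transporters were the most abundant of all classes together with the mitochondrial carriers, and 0 of their 21 genes passed the edgeR test, with 2 higher and 2 lower at an unadjusted p under 0.05 (9.52% each, against 7.24% and 6.03% of all genes). Slc6a6, the taurine transporter, stood at the top of all 161 genes, with 201 and 157 FPKM in the normal diet libraries and 143 and 165 FPKM in the high-fat diet libraries. The diets overlapped for it, and its log2 fold change was -0.12 ± 0.13 (SE, edgeR adjusted p = 0.753). It took 11% of the summed FPKM of the chosen genes. Slc38a2, a sodium-coupled importer of small neutral amino acids, had 67.0 and 66.1 FPKM against 64.3 and 69.1 FPKM, again with overlap.

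The smallest p of this class belonged to Slc7a5, the light chain of the LAT1 exchanger that brings in leucine and other large neutral amino acids. It had 858 and 630 counts against 418 and 304, or 74.6 ± 12.3 CPM against 43.0 ± 9.46 CPM (mean ± SD, n = 2 per diet). Both high-fat diet libraries were below both normal diet libraries. The log2 fold change was -0.79 ± 0.19 (SE) and missed the threshold in edgeR (adjusted p = 0.0814), while DESeq2 called the gene lower (adjusted p = 0.0224). Its heavy chain partner Slc3a2 had 113 and 107 CPM against 102 and 105 CPM, and its log2 fold change was -0.09 ± 0.13 (SE).

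Slc38a4, a neutral and cationic amino acid importer, had 137 and 144 CPM with the normal diet and 105 and 93.5 CPM with the high-fat diet, a separation without a call (log2 fold change -0.50 ± 0.13 SE, edgeR adjusted p = 0.110). Slc6a8, the creatine transporter, had 65.6 and 64.6 CPM against 89.2 and 87.4 CPM (edgeR adjusted p = 0.200). Slc6a9, a glycine transporter, had 4.37 and 7.64 CPM against 11.9 and 11.8 CPM (edgeR adjusted p = 0.282). Both of these lay above the normal diet values with the high-fat diet, and neither passed the test. The glutamine transporter Slc1a5 overlapped between the diets, at 15.1 and 18.6 CPM against 14.9 and 17.6 CPM. The cystine-glutamate exchanger Slc7a11 had only 4 and 3 counts against 8 and 13 and was not tested. The median log2 fold change of the class was 0.09, with 13 positive and 8 negative values. With normal diet replicate 1 left out it was -0.05, and with high-fat diet replicate 2 left out -0.04.

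The summed level of the amino acid class was 467 and 434 FPKM with the normal diet and 390 and 417 FPKM with the high-fat diet. The sums did not overlap (ratio 0.895, exact two-sided permutation test p = 0.333, the smallest that 2 against 2 can give). On the TPM scale, where each library has the same sum over genes, they did overlap, at 257 and 207 against 197 and 223 TPM. FPKM are scaled by library totals without the TMM factors, which were 1.038 and 1.022 for the normal diet against 0.965 and 0.976. The part of this scaling in the difference of FPKM sums was not tested.

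The 33 genes classed as mitochondrial carriers, most of which exchange nucleotides, metabolites and ions across the inner membrane, had more members separated downward than upward. Both high-fat diet libraries lay below both normal diet libraries for 11 of them (33.3%, against 21.9% of all genes) and above for 4 (12.1%, against 22.7%). Of all genes with at least 200 counts, 24.7% lay below and 21.1% above. At an unadjusted p under 0.05, 3 were lower (9.09%, against 6.03% of all genes) and 0 higher (against 7.24%). None passed after adjustment in edgeR or DESeq2. The median log2 fold change was -0.03, and 0.03 with normal diet replicate 1 left out. The adenine nucleotide translocases dominated the class. Slc25a5 had 160 and 141 FPKM against 129 and 131 FPKM, and Slc25a4 had a mean of 53.8 FPKM and a log2 fold change of -0.16 ± 0.14 (SE). Slc25a5 has processed copies elsewhere in the genome, so its own share of the reads is uncertain.

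Slc25a33 showed the largest decrease in value of all 161 genes, with 90 and 125 counts against 38 and 36, or 10.9 ± 3.07 CPM against 4.41 ± 0.153 CPM (mean ± SD, n = 2 per diet). The diets did not overlap, and the log2 fold change of -1.30 ± 0.40 (SE) did not pass (edgeR adjusted p = 0.172). The glutamate carrier Slc25a22 had a log2 fold change of -0.84 ± 0.30 (SE), and the dicarboxylate carrier Slc25a10 of -0.52 ± 0.22 (SE). Slc25a20, which brings acylcarnitines into the mitochondrion for fatty acid oxidation, had a log2 fold change of 0.27 ± 0.27 (SE, edgeR adjusted p = 0.730). The summed level of the class was 466 and 421 FPKM against 398 and 383 FPKM, without overlap (ratio 0.88, exact two-sided permutation test p = 0.333). In TPM the sums overlapped, at 257 and 201 against 201 and 205 TPM. Of mitochondrial carriers without an Slc symbol 0 of 11 passed the edgeR test. At an unadjusted p under 0.05, 2 were higher (18.2%, against 7.24% of all genes).

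**Figure D4:**
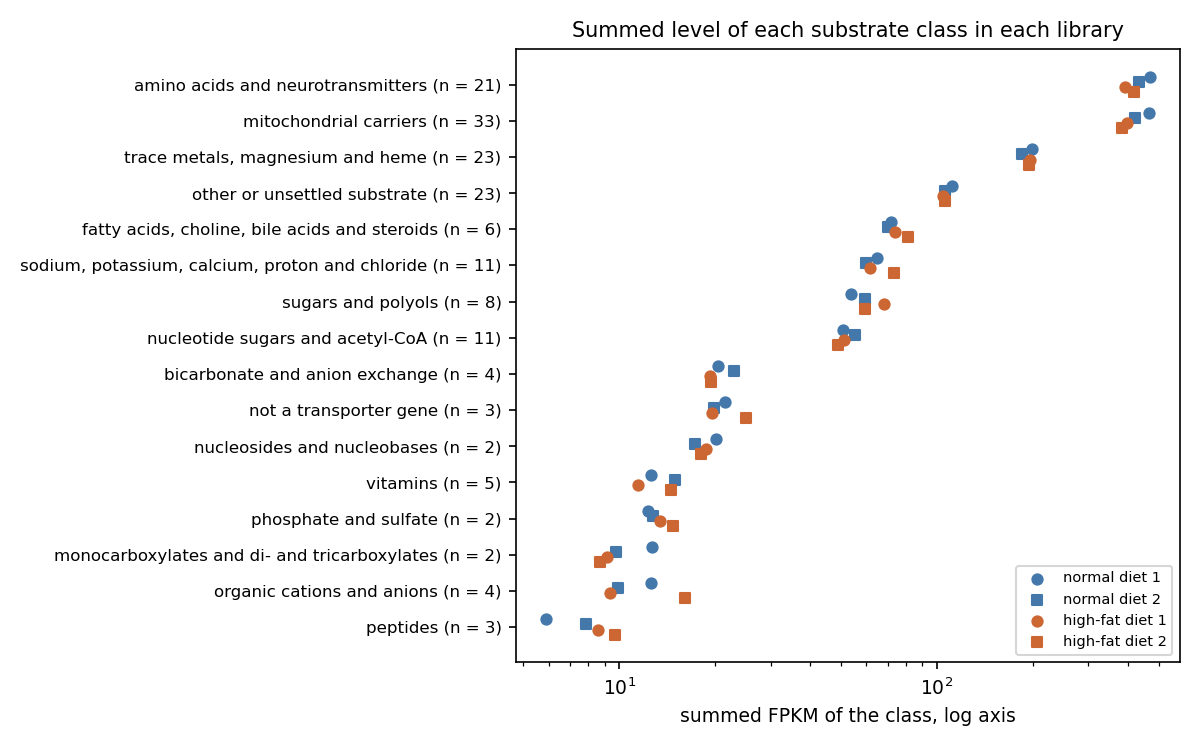
Summed FPKM (x axis, log scale) of each substrate class (y axis, with the number of genes) in each of the 4 libraries, circles for replicate 1 and squares for replicate 2. Amino acid transporters and mitochondrial carriers have the largest sums, between 383 and 467 FPKM, and for both classes the 2 normal diet points lie above the 2 high-fat diet points. In TPM the sums of both classes overlapped between the diets.

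Metal transporters numbered 23. Among them Slc39 genes bring zinc and other metals into the cytosol and Slc30 genes take zinc out of it. The median log2 fold change was 0.16. There were 9 genes separated upward (39.1%, against 22.7% of all genes) and 3 downward (13%, against 21.9%). At an unadjusted p under 0.05, 1 was higher and 1 lower (4.35% each, against 7.24% and 6.03% of all genes). Neither edgeR nor DESeq2 called any of them after adjustment. The summed level overlapped, at 199 and 185 FPKM against 197 and 195 FPKM.

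The gene with the smallest p was the zinc importer Slc39a6, with 62.3 and 73.2 CPM against 98.3 and 89.3 CPM (log2 fold change 0.47 ± 0.15 SE, edgeR adjusted p = 0.197). Slc39a14, an importer of zinc and iron, had lower values with the high-fat diet, 54.3 and 40.8 CPM against 33.6 and 32 CPM (edgeR adjusted p = 0.254). Slc39a1, the most abundant zinc importer at a mean of 33.6 FPKM, had a log2 fold change of 0.27 ± 0.15 (SE), and Slc30a1, the zinc exporter of the plasma membrane, of -0.25 ± 0.16 (SE). In Slc39a6 and Slc39a14 the diets did not overlap.

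Of 6 genes that handle fatty acids and choline, 2 were higher (33.3%, against 7.24% of all genes) and 0 lower at an unadjusted p under 0.05, and none passed after adjustment in edgeR or DESeq2. Slc27a3, of the fatty acid transport protein family, had 21 and 29.4 CPM against 36.4 and 48.1 CPM (log2 fold change 0.75 ± 0.23 SE, edgeR adjusted p = 0.180). Slc44a2, a choline transporter-like protein, had 60.8 and 69.7 CPM against 101 and 83.5 CPM (log2 fold change 0.50 ± 0.16 SE, edgeR adjusted p = 0.190). Both were higher in each high-fat diet library than in each normal diet library. The fatty acid transport proteins Slc27a1 and Slc27a4 had log2 fold changes of 0.04 ± 0.16 and -0.05 ± 0.25 (SE).

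Smaller classes held single genes apart from the rest. Slc22a4, which takes up the antioxidant ergothioneine, had 4.18 and 7.96 CPM against 10.2 and 20.0 CPM (log2 fold change 1.32 ± 0.43 SE, edgeR adjusted p = 0.197). The GDP-fucose transporter Slc35c1 of the Golgi had 11.7 and 11.7 CPM against 18.6 and 18.9 CPM (edgeR adjusted p = 0.282). The riboflavin transporter Slc52a2 had 6.99 and 7.85 CPM against 4.05 and 3.11 CPM (edgeR adjusted p = 0.340). In these 3 genes the libraries of a diet kept to one side.

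Of the remaining classes, the phosphate importer Slc20a2 had 48.0 and 44.9 CPM against 58.4 and 63.7 CPM (edgeR adjusted p = 0.316), while its relative Slc20a1 had a log2 fold change of -0.01 ± 0.22 (SE). The chloride-bicarbonate exchanger Slc4a3 had 18.8 and 17.0 CPM against 10.2 and 13 CPM (edgeR adjusted p = 0.364). For Slc20a2 and Slc4a3 the diets did not overlap. The nucleoside transporter Slc29a1 and the folate transporter Slc19a1 had log2 fold changes of 0.11 ± 0.18 and -0.29 ± 0.31 (SE).

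Levels of the 161 genes spanned from 0.833 to 167 FPKM, with a median of 4.29 FPKM. There were 38 genes with a mean of at least 10 FPKM, 4 with at least 50 and 22 under 2. The 10 most abundant genes held 39.8% of the summed level. Besides the genes above, these included the choline transporter-like gene Slc44a1 at 28.8 FPKM and the mitochondrial phosphate carrier Slc25a3 at 27.7 FPKM. Slc15a2 and Slc24a3, at means of 1.19 and 1.96 FPKM, were both in the lowest group. The summed level of all 161 genes was 1603 and 1506 FPKM against 1454 and 1490 FPKM, and in TPM the diets overlapped, at 883 and 718 against 732 and 797 TPM.

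Replicates of a diet differed by more than 2-fold for 9 genes in the normal diet and 5 in the high-fat diet, with median ratios of 1.23 and 1.18. The widest gap was that of Slc6a2, the noradrenaline transporter, at 3.68 between the normal diet libraries, followed by the organic cation transporter Slc22a3 at 3.34 in the same pair and Slc15a2 in the high-fat diet pair. Slc6a2 had a log2 fold change of 0.28 ± 0.46 (SE) and Slc22a3 of -0.46 ± 0.49 (SE).

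The count minimum decided on a few genes. Just inside it were Slc52a2 with 207 counts and Slc35e4 and Slc22a5 with 212 each, and just outside it Slc46a1 with 189, Slc46a2 with 171 and Slc16a9 with 164. Of the 220 genes under the minimum 53 were tested. At an unadjusted p under 0.05, 7 were higher and 1 lower, or 13.2% and 1.89%, against 7.24% and 6.03% of all genes. After adjustment edgeR called 0 of the 53 lower (against 0.228% of all genes) and 1 higher (1.89%, against 1.12%). That gene, named after its values were seen, was the sodium-driven chloride-bicarbonate exchanger Slc4a8, with 2 and 5 counts against 78 and 72 (log2 fold change 4.60 ± 0.66 SE, edgeR adjusted p = 0.00800). Its first normal diet library was under 3 counts, and its edgeR adjusted p was 0.0405 and 0.0299 when high-fat diet replicate 1 or 2 was left out. With normal diet replicate 1 or 2 left out it did not pass (edgeR adjusted p = 0.456 and 0.139).

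Transporters outside the Slc name rule were counted from lists written beside the classes. Of 23 ABC transporters tested, which pump lipids, drugs and other compounds with the energy of ATP, 1 rose (4.35%, against 1.12% of all genes) and 0 fell. The diets did not overlap for 13 in the upward direction (56.5%, against 22.7% of all genes) and for 1 in the downward direction (4.35%, against 21.9%). The median log2 fold change was 0.39. The gene called was Abca12, which loads lipids into the lamellar granules of the upper epidermis, with 32.8 and 39.5 CPM against 77.2 and 98.8 CPM (log2 fold change 1.28 ± 0.18 SE, edgeR adjusted p = 0.00780). The suprabasal markers, whose sums are given above, were also higher in both high-fat diet libraries, and their part in this result was not tested.

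Of organic anion transporting polypeptides 0 of 4 tested passed the edgeR test. At an unadjusted p under 0.05, 2 were higher (50%, against 7.24% of all genes). Among the 2 was the prostaglandin transporter Slco2a1, at 14.3 and 35 CPM against 62.3 and 64.5 CPM (edgeR adjusted p = 0.0601). Among transporter chaperones and scaffolds 0 of 8 passed. At an unadjusted p under 0.05, 2 were higher and 2 lower (25% each, against 7.24% and 6.03% of all genes). Of copper, heme and phosphate transporters 0 of 9 passed, with 1 higher at an unadjusted p under 0.05 (11.1%, against 7.24% of all genes). The diets did not overlap for Slco2a1, and its first normal diet library was the lowest of the 4.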

How the data were processed

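RNA-seq of hair follicle stem cells was compared between 2 libraries per diet, grouped by the diet in the labels. Per the submitters' processing notes, HISAT2 2.0.1, bcl2fastq 2.17.1.14 and cutadapt 1.9.1 were used, with no roles named. Counting program, strand setting and build: not given in the sources used here. Reads of overlapping genes may therefore not be told apart. The authors deposited raw counts and FPKM per gene and library; the deposited FPKM equal the count divided by exonic size and library total, within 0.005.

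Counts of all genes were fitted by edgeR 4.0.16 under R 4.3.3 (quasi-likelihood test, TMM scaling, default expression filter, prior following abundance), which kept 14479 genes, all 161 chosen genes among them. A gene could pass the filter through the libraries of 1 diet alone. Benjamini-Hochberg adjustment ran over those genes, with calls made at an adjusted p under 0.05. SE is the log2 fold change divided by the square root of F. The common biological coefficient of variation (edgeR) came to 20.3%. The ribosomal RNA-like gene Gm23935 took between 8.31% and 9.89% of counts. Floors of 3 counts cover counting error only. TPM were computed from the deposited counts and exonic sizes. Promoter stretches were taken from RefSeq, matched by symbol.

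The chosen genes, substrate classes, transport lists and marker lists were set with earlier results of these data known. Classes follow the family, with exceptions by gene; Slc4a1ap was set apart as no transporter after the list of genes was seen. Named genes were Slc15 and Slc24 family genes, called genes, in each class the 2 of highest FPKM and the smallest p, and a list of well-known carriers, not all of which are described; Slc2a4, Slc2a5, Slc25a3, Slc5a3, Slc6a2, Slc6a8, Slc6a9, Slc9a9, Slc12a7, Slc22a3, Slc25a10, Slc25a22, Slc38a4, Slc39a14, Slc4a8 and the genes of other transport lists were added after their values were seen. Alternatives were other scalings, filters, tools (DESeq2 1.42.0, limma 3.58.1 on log2(FPKM + 1) and log2(FPKM + 0.1)), count minimums, a block for the replicate number, and fits without each library, in which the single library left in a diet takes the spread of the other diet. On simulated counts for this comparison over 14479 genes, the share of changed genes that edgeR recovered was 42% at 2-fold and 82% at 4-fold. Of 127 calls, 3 were unchanged genes. Whether replicates of single genes spread as widely in these counts as in the deposited ones was not tested. The shares are therefore given for the simulated counts alone.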

Additional observations from a re-analysis of the deposited data

How the results depend on the processing

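Of 161 genes, 4 were called higher and 0 lower, where 162 and 33 of all 14479 genes were. The number called higher was 8 with no count filter, where 408 of all 24790 genes were. It was 0 with limma at either pseudocount, where only 2 of all genes were. Among Slc genes with at least 400 counts 2 were called higher, and 0 among those with at least 1000. The share over all genes at these minimums was not counted. The number called lower was 2 with no count filter (Slc7a5 and Slc38a4). It was 1 each, Slc7a5, with at least 10 counts in every library, with DESeq2, with the replicate block and at an adjusted p under 0.10. Of all genes, 225 were lower with no count filter and 70 with at least 10 counts in every library. DESeq2 called 115 of all genes lower and the replicate block 111. The replicate block gave 6 higher genes, the added ones being Slc2a5 and Slc22a4, and called 308 of all genes higher. Same-numbered libraries did not deviate together (Pearson r = -0.0127 over 14479 genes), so the numbers were not taken as pairs. The 4 genes called higher kept their call with DESeq2 size factors and upper-quartile factors, and Slc2a12 alone lost it with library totals or equal TPM sums. No scaling moved the median of all genes by over 0.1, the largest shift being -0.0867 with library totals.

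Class medians of the log2 fold change moved as follows. For amino acids the median was 0.0042 with library totals, 0.0027 and 0.0028 with limma at pseudocounts of 1 and 0.1, -0.0303 at a minimum of 1000 counts, and between -0.0479 and 0.0993 without 1 library. For fatty acids and choline it was -0.0019 with library totals, 0.0144 with equal TPM sums, 0.0040 and 0.0034 with the limma fits, 0.32 at 1000 counts and 0.0528 to 0.22 without 1 library. For metals it was 0.0760 with library totals, 0.0822 with equal TPM sums, 0.0720 and 0.0785 with the limma fits, 0.12 at 400 counts and 0.0689 to 0.21 without 1 library. For sodium, potassium, calcium, proton and chloride genes it was 0.13 with limma at a pseudocount of 1, 0.18 at 400 counts and 0.0881 to 0.43 without 1 library. For other or unsettled substrates it was -0.14 with library totals and with limma at 0.1 (-0.138 and -0.135), -0.13 with equal TPM sums, 0.0611 at 100 counts, -0.23 at 1000 counts and -0.0937 to -0.0073 without 1 library. At 1000 counts it was -0.14 for sugars and 0.20 for vitamins. Without 1 library it lay between 0.11 and 0.40 for sugars, -0.17 and 0.0329 for mitochondrial carriers, and -0.21 and 0.16 for nucleotide sugars. Named genes were followed across settings where the log2 fold change was at least as large as its SE (45 genes), so sign changes of genes closer to 0, such as Slc6a6, are not counted. Among these 45 the sign changed for 4 when 1 library was left out, over ranges of -0.39 to 0.0188 for Slc12a4, -0.44 to 0.0381 for Slc16a7, -0.47 to 0.0710 for Slc35e1 and -0.55 to 0.12 for Slc39a10. The cause was not tested. With 2 libraries a diet and between 8590570 and 9940848 counts each, folds of genes near 3 counts, as Slc15a2 with the normal diet, rest on few reads.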
